A study of Mus musculus with 9 samples.

Results

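D-type cyclins, their kinase partners Cdk4 and Cdk6, and the inhibitors Cdkn1a (p21) and Cdkn1b (p27) were examined in melanocytes, the pigment cells of skin, isolated from mouse epidermis by fluorescence-activated sorting. The genes were chosen by symbol, and all 7 (Ccnd1, Ccnd2, Ccnd3, Cdk4, Cdk6, Cdkn1a and Cdkn1b) were found among the 16299 genes of the deposited table. There were 3 groups of 3 RNA libraries. Control tail libraries came from tail epidermis of Spry1flox/flox mice. Mice with the same floxed alleles plus k14-Cre-ERT2 gave the knockout tail and knockout back libraries, named for the epidermis used. All 3 groups therefore share the floxed Spry1 alleles, and Cre is the difference that the labels give between the tail groups. The tail groups also differ in sex-linked transcripts and in how their libraries fall into 2 sets, as given below. Keratin 14 is made by basal keratinocytes, so deletion of Spry1, an inhibitor of receptor tyrosine kinase signalling, is aimed at the neighbours of the sorted cells. Cre-ERT2 acts only in the presence of a drug such as tamoxifen, and the labels name no drug, age or sex. Nor do they state whether each library of a group is another animal. The p-values thus refer to the spread between libraries alone, and that spread may be technical.

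D-type cyclins are made in response to growth factor signals and bind Cdk4 or Cdk6. The complexes phosphorylate the retinoblastoma protein, which then releases E2F factors that switch on genes for DNA replication. The inhibitor p21 is a target of p53 and blocks cyclin-dependent kinases, and p27 holds cells in the resting state. In melanocytes Ccnd1 is known as an output of the ERK pathway, and Cdk4 and its inhibitors are known from the genetics of melanoma.

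Values are given as normalised counts, that is, whole counts recovered from the deposited log2 levels, over each library's size factor. Before deposit a shift had been removed between 2 library sets: the smaller holds library 3 of knockout tail and library 3 of back, and the larger the other 7, and normalised counts do not contain that step. Log2 differences come from a limma fit to the deposited levels of all 9 libraries with group and library set as terms, whose estimates are the same whether or not the shift is removed. Adjusted p-values are Benjamini-Hochberg over all 16299 genes, with a threshold of 0.05. The 3 comparisons share libraries and are not independent of each other.

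The libraries differed in ways that touch every comparison. Recovered totals ran from 45.1 to 67.2 M counts. Genes with 0 counts numbered 4628 and 6127 in the first and the second back library, which are called sparse below, and 854 to 1739 elsewhere. Summed normalised counts of the 7 recovered melanocyte markers were 653710 to 662962 across control tail, 775897 to 922301 across knockout tail and 875904 to 990274 in knockout back, so the sorted cells carried the markers of their label in every library. The 7 basal keratinocyte markers summed to 39033 to 100246 across control tail, to 36746, 12718 and 325924 across knockout tail, and to 39208 to 190386 in knockout back. The 8 differentiated keratinocyte markers summed to 27345 to 111701 across control tail, 14030 to 154661 across knockout tail and 37887 to 212488 in knockout back. The 5 Langerhans and myeloid markers analysed here summed to 1393 to 3283, 1759 to 8024 and 1983 to 15885. Of 4 Schwann cell markers 2 were analysed here, and these summed to 7251 to 11619, 7471 to 13686 and 19266 to 46997. Ngfr was at 0 in every back library, so the Schwann sums in back are those of 1 gene. Fibroblast markers (4 genes) stayed between 400 and 3228, T cell markers (3 genes) between 0 and 757 with Trbc1 at 0 in every control library, and 1 muscle, fat and blood gene between 2 and 431, while none of the 4 endothelial markers was analysed here. The Y-linked gene Eif2s3y had 121, 0 and 7 normalised counts across control tail, 3948, 4793 and 0 across knockout tail and 3527, 2974 and 3843 in back, and Xist had 4223, 1416 and 3973 across control tail, 4, 16 and 7358 across knockout tail and 1414, 1481 and 2645 in back. Transcripts of both kinds were thus present in every back library, while the tail libraries carried mainly one or the other, and sex is not balanced across the groups. Spry1 had 1074 to 1510 normalised counts across control tail, 587 to 3590 across knockout tail and 0 to 2283 in knockout back, so its level in these cells, where the keratin 14 promoter is not known to be active, does not check the labels. The part of these differences in the results below was not tested. In bulk samples, fewer cells of a type and less RNA per cell cannot be told apart.

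Of the 7 genes, Ccnd1 alone passed the test, and it was lowest in melanocytes from the back. Ccnd1 encodes cyclin D1 (ENSMUSG00000070348.5, chromosome 7, 144929931 to 144939925, minus strand, GRCm38, protein coding). Its normalised count was 19851, 15754 and 19679 across control tail, 9457, 8938 and 19625 across knockout tail, and 3533, 1938 and 5573 in knockout back. Every back library lay below every tail library of either genotype. The first and second knockout tail libraries lay at about the same level below control, while the third was as high as control. Library 3 of knockout tail also had the highest basal keratinocyte sum, and it is the only knockout tail library in the smaller set. Its Eif2s3y and Xist counts were 0 and 7358, beside 0 to 121 and 1416 to 4223 across control tail. Libraries 1 and 2 of knockout tail had 3948 and 4793 for Eif2s3y, and 4 and 16 for Xist. Whether any of these differences bears on the Ccnd1 level was not tested.

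Ccnd1 fell by 1.67 on the log2 scale in back against knockout tail (SE 0.23, 95% interval -2.20 to -1.14), which is 3.18-fold, with a limma adjusted p of 0.0381. In that comparison 0.294% of all genes were called lower. The ratio was alike in both library sets: back was 3.37-fold lower in the larger set (2 libraries against 2) and 3.52-fold lower in the smaller (1 against 1). In this comparison 10.4% of 16295 genes with recovered counts had every back library below every knockout tail library, so the absence of overlap is common. The settings counted next are not all distinct checks. Leaving out the third knockout tail library, the third back library or the smaller set gave -1.64 each time. The call held in 11 of 22 other settings and leave-outs, with differences from -1.89 to -1.47 and adjusted p from 0.025 to 0.213. It was lost without any 1 control library (0.0855 to 0.11), without the first or second knockout tail library (0.184 and 0.175), without both sparse libraries (difference -1.73, adjusted p = 0.213) with group alone on log2(normalised count + 1), where the shift is not removed (-1.81, adjusted p = 0.145), with array weights (-1.60, adjusted p = 0.106) and in limma-voom with group alone (-1.70, adjusted p = 0.169).

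Against control tail, Ccnd1 fell by 2.61 in back (SE 0.24, interval -3.18 to -2.05), which is 6.11-fold, with a limma adjusted p of 0.007. Of all genes, 2.29% were called lower there, and 15.6% had no overlap in that direction. Body site and Cre both differ between these groups and cannot be told apart. The call held in 21 of 22 settings, some of which nearly repeat each other. It was lost without both sparse back libraries, which leaves 1 back library (-2.69, adjusted p = 0.107). The control libraries all lie in the larger set, where back was 6.76-fold lower than control over 2 and 3 libraries. Those 2 back libraries are the sparse ones. The third back library, in the smaller set, had 5573 normalised counts beside a control mean of 18428, and reaches control only through the set term. In the fit with group alone the difference was -2.36.

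Between knockout tail and control tail the Ccnd1 difference was -0.94 (SE 0.24, interval -1.51 to -0.38), with an unadjusted p of 0.005 and an adjusted p of 0.383, so it did not pass over all genes. The groups overlapped through the third knockout tail library. In the fit with group alone the difference was -0.69 (adjusted p = 1), and with array weights, which count some libraries less, -0.95 passed at 0.0406. In this comparison 0.0614% of genes were called, and none of the 7 was among them.

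Part of the Ccnd1 exons, 1100 bases or 23.36%, lies opposite exons of LTO1 on the other strand. The counting strand is not given in the sources used here, so reads of that stretch cannot be told apart. LTO1 itself had 606 to 1005 normalised counts across control tail, 693, 91 and 1778 across knockout tail, and 1747, 0 and 1848 in back.

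**Figure D1:**
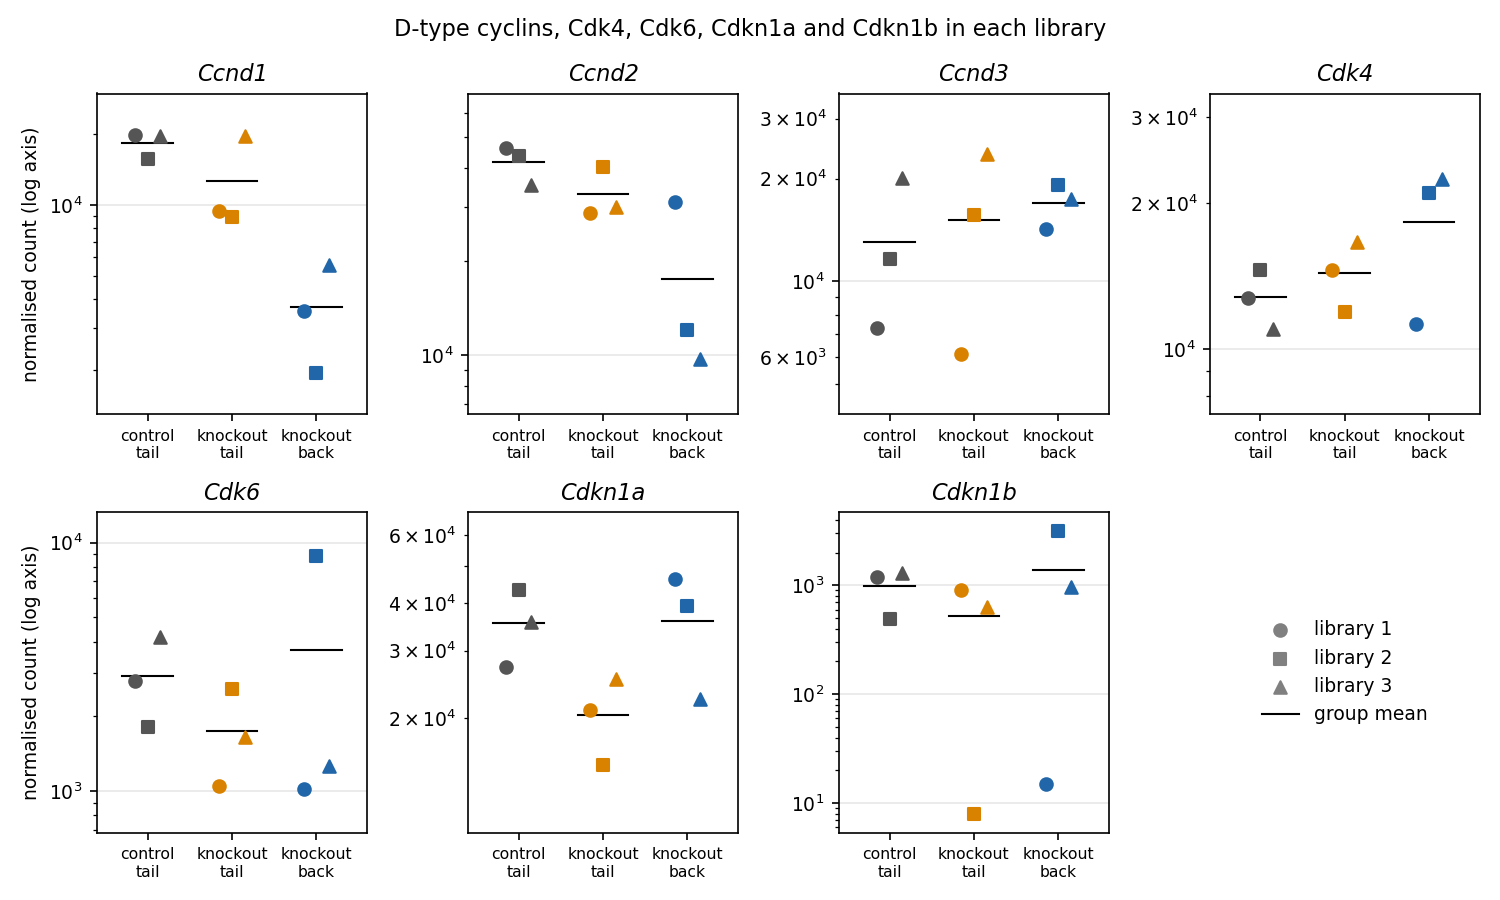
Normalised counts (log axis) of the 7 genes in each of the 9 libraries, by group, with symbols for the library number and a bar at the group mean. Ccnd1 lies between 1938 and 5573 in knockout back and at 8938 or above in every tail library, while Cdkn1b spans from 8 to 3148.

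Ccnd2, cyclin D2 (ENSMUSG00000000184.12, chromosome 6, 127125162 to 127152193, minus strand), had the highest normalised counts of the D-type cyclins in tail. It lay at 46066, 43722 and 35099 across control tail, at 28611, 40210 and 29978 across knockout tail, and at 31061, 12084 and 9716 in back. All back libraries lay below all control libraries, an arrangement found in 15.6% of genes, while the first back library overlapped knockout tail. The difference of back against knockout tail was -1.05 (SE 0.35, interval -1.87 to -0.23, limma adjusted p = 0.181), and that of back against control tail -1.20 (SE 0.38, interval -2.07 to -0.33, adjusted p = 0.107). Neither passed. Against control the value was -1.77 without the first back library and then passed (adjusted p = 0.0353). In knockout tail against control tail it was -0.15 (interval -1.02 to 0.72).

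Ccnd3, cyclin D3 (ENSMUSG00000034165.16, chromosome 17, 47505051 to 47599691, plus strand), had no lower level in back. Its normalised count was 7301, 11665 and 20146 across control tail, 6123, 15646 and 23682 across knockout tail, and 14274, 19200 and 17484 in back. The tail libraries spread over about as wide a range in either genotype, and the back libraries lay inside it. None of the differences passed: -0.08 for knockout tail relative to control tail (interval -1.24 to 1.07), 0.34 for back against knockout tail (-0.75 to 1.43) and 0.26 for back against control tail (-0.90 to 1.41). In the smaller set back had 0.738 times the knockout tail count, and in the larger set 1.54 times.

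The make-up of the D-type cyclin transcripts was compared within each library as the share of each cyclin in the summed normalised counts per kb of exon, a measure that no size factor changes. The shares still contain the shift between library sets, which differed by gene. On the log2 scale the larger set minus the smaller was -0.25 for Ccnd1, 0.86 for Ccnd2 and -0.69 for Ccnd3. The permutation test below takes no account of the set. The share of Ccnd1 was 42.4%, 35.9% and 40.9% across control tail, 34.9%, 23.9% and 41.5% across knockout tail, and 13.2%, 10.6% and 28.1% in back. Back did not overlap control. The share of Ccnd3 was 8.37%, 14.3% and 22.5% across control tail, 12.1%, 22.4% and 26.8% across knockout tail, and 28.6%, 56.3% and 47.3% in back. Each back library thus had a higher Ccnd3 share than each tail library. Ccnd2 made up 36.6% to 49.8% across control tail, 31.7% to 53.7% across knockout tail and 24.5% to 58.1% in back.

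The mean Ccnd3 share was 15.0% ± 7.10 (SD, n = 3) across control tail, 20.5% ± 7.54 across knockout tail and 44.1% ± 14.1 in back. An exact two-sided permutation test over libraries gave p = 0.1 for back against either tail group. That is the smallest p that 3 against 3 libraries allow. The mean Ccnd1 share was 39.7% ± 3.42 across control tail, 33.4% ± 8.90 across knockout tail and 17.3% ± 9.45 in back, at an exact permutation p of 0.1 against control tail and 0.2 against knockout tail. Adjusted over the 12 such tests run, these became 0.4 and 0.48. With 0.1 as the smallest possible p, no share could have passed 0.05, so the test decides nothing here. With the length of the longest transcript in place of all exons, the share of Ccnd3 was higher in every library (13.1% to 67.2%), and its difference between back and control tail was 33.0 percentage points against 29.1.

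**Figure D2:**
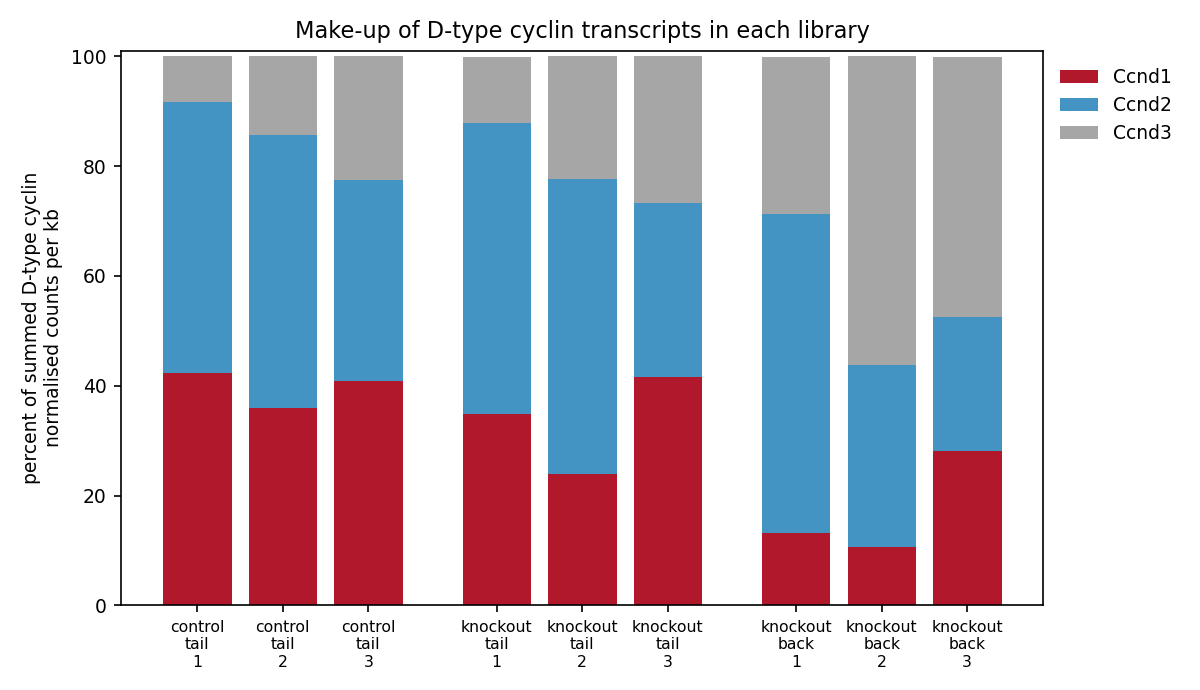
Stacked bars give the percent of Ccnd1, Ccnd2 and Ccnd3 in the summed D-type cyclin normalised counts per kb, 1 bar for each of the 9 libraries. The Ccnd3 part is 28.6% to 56.3% in knockout back and 8.37% to 26.8% in the tail libraries.

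Of the kinases, Cdk4 was far more abundant than Cdk6. Per kb of exon, Cdk4 (ENSMUSG00000006728.12, chromosome 10, 127063534 to 127067920, plus strand) made up 91.1% to 98.7% of the sum of both in the 9 libraries. Its normalised count was 12745, 14542 and 10999 across control tail, 14556, 11900 and 16568 across knockout tail, and 11278, 20996 and 22392 in back. The second and the third back libraries were above all others, and the first was within the tail range. The log2 differences were 0.02 (interval -0.59 to 0.63) for knockout tail relative to control tail, 0.29 (-0.29 to 0.86) for back against knockout tail and 0.31 (-0.30 to 0.91) for back against control tail, none past the threshold (limma adjusted p of 1, 0.577 and 0.513). The values with back were 0.56 and 0.64 without the first back library, and 0.06 and 0.02 without the second. Reads of 641 exon bases, 19.73% of the Cdk4 exons, cannot be told apart from those of Tspan31 on the other strand, which had 12652 to 23452 normalised counts.

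Cdk6 (ENSMUSG00000040274.11, chromosome 5, 3341485 to 3531008, plus strand) had 2772, 1812 and 4165 normalised counts across control tail, 1049, 2567 and 1649 across knockout tail, and 1022, 8842 and 1266 in back. The second back library, which had the most genes at 0 counts, was the highest of all, and the other back libraries were among the lowest. The difference of back against knockout tail was 0.43 (interval -1.21 to 2.08), and without that second library it was -0.43. The differences from control tail were -0.42 in knockout tail (-2.17 to 1.32) and 0.01 in back (-1.74 to 1.76). The intervals for Cdk6 span changes of more than 1 in either direction on the log2 scale, so such changes were not detectable in these libraries.

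Upstream sequence from RefSeq (GRCm38.p6) was available for 5 of the 7 genes, Ccnd1 and Ccnd2 being the others. The 250 bases before each annotated start were searched on both strands for the E-box CACGTG, bound by Myc, Max and related factors. The Cdk4 window held 4 copies, at 172, 118, 98 and 11 bases before the start (first base of each), and the Cdk6 window 1, at 220. Of 32851 promoter windows, 6.02% held the motif at least once and 0.0609% at least 3 times. These stretches are shown, 5′ to 3′ on the plus strand with CACGTG in capitals, because Cdk4 and Cdk6 differ both in level and in this motif. A match is a description and not a measured binding site, and no link between the motif and the level of a gene was tested. TGAGTCA, TGACGTCA, TTTCGCGC and TTTGGCGC, the other regulatory motifs sought, were in none of the 7 windows and in 4.46%, 1.55%, 0.256% and 0.417% of all windows. CCAAT was in the Cdkn1b window and 1 of 2 Ccnd3 windows (33.8% of all windows), and GGGCGG in the windows of Cdkn1b, Cdk4 and Ccnd3 and that of the downstream Cdkn1a start (32.7%).
Cdk4, chr10:127063355-127063530: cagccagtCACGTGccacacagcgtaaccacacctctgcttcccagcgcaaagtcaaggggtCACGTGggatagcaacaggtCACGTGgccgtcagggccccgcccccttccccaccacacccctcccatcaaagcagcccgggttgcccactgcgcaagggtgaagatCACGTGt
Cdk6, chr5:3343653-3343712: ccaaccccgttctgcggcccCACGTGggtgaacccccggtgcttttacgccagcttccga

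Myc, whose product binds this motif, had 7266 to 9582 normalised counts across control tail, 4239, 6695 and 8936 across knockout tail and 7264 to 10752 in back. Its differences were -0.60 for knockout tail relative to control tail, 0.48 for back against knockout tail and -0.12 for back against control tail, with limma adjusted p of 0.868, 0.331 and 0.809.

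Cdkn1a, which encodes p21 (ENSMUSG00000023067.14, chromosome 17, 29090976 to 29100727, plus strand), was the most abundant of the 7 per kb in each group. Its normalised count was 27165, 43340 and 35608 across control tail, 20936, 15054 and 25252 across knockout tail, and 46049, 39205 and 22446 in back. Every knockout tail library lay below every control library in normalised counts, an arrangement found in 9.31% of genes in this direction. The third knockout tail library is in the smaller set and every control library in the larger. In deposited levels, with the shift removed, that knockout tail library (14.83) lay above the first control library (14.58). The first and second back libraries lay above all knockout tail libraries, and the third lay among them. The difference between knockout tail and control tail was -0.72 (SE 0.34, interval -1.50 to 0.07), with an adjusted p of 0.933, and -0.38 without the second knockout tail library. Between back and knockout tail it was 0.77 (SE 0.32, interval 0.03 to 1.51), with an unadjusted p of 0.0431 and an adjusted p of 0.256. Neither passed.

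The Cdkn1a values differed in direction between the library sets, a difference that was not tested. In the larger set back was 2.37 times knockout tail, and in the smaller set 0.889 times. Leaving out the third knockout tail library, the third back library or both gave 1642, 1638 and 1637 called genes. With all 9 libraries 71 of 16299 were called. In those leave-outs the Cdkn1a difference was 1.24 and passed (limma adjusted p of 0.0441 to 0.0442). Without both sparse libraries it was -0.17 (adjusted p = 0.942). Between back and control tail the difference was 0.05 (interval -0.73 to 0.84).

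The upstream of 2 annotated Cdkn1a starts has, close before it, a pair of CATG copies set 6 bases apart, the core of a p53 response element. It is shown because p21 is the classic p53 target and the other p53 targets are described below. The pair reads the same on both strands and was found in 0.490% of the promoter windows, and in none of the windows of the other genes or of the downstream Cdkn1a start. Its first base lies 48 bases before the start. The capitals mark the pair and the bases between.
Cdkn1a, chr17:29090899-29090972: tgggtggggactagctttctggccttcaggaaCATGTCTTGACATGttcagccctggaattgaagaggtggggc

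Cdkn1b, which encodes p27 (ENSMUSG00000003031.14, chromosome 6, 134920401 to 134925513, plus strand), varied widely between libraries. Its normalised count was 1182, 493 and 1291 across control tail, 915, 8 and 631 across knockout tail, and 15, 3148 and 956 in back. The second knockout tail and first back libraries had next to no Cdkn1b counts, and the second back library had the most. The coefficient of variation was 43.8% across control tail, 89.6% across knockout tail and 117% in back. The differences were -1.06 (interval -3.37 to 1.26), 0.63 (-1.55 to 2.81) and -0.42 (-2.74 to 1.89) for knockout tail relative to control tail, back against knockout tail and back against control tail, none past the threshold. Without the second knockout tail library the difference of back against knockout tail was -0.03, and that of knockout tail against control tail -0.23. The latter was -1.80 without the first knockout tail library and -3.23 in limma-voom with the set term, and that of back against control tail was 0.78 without the first back library.

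**Figure D3:**
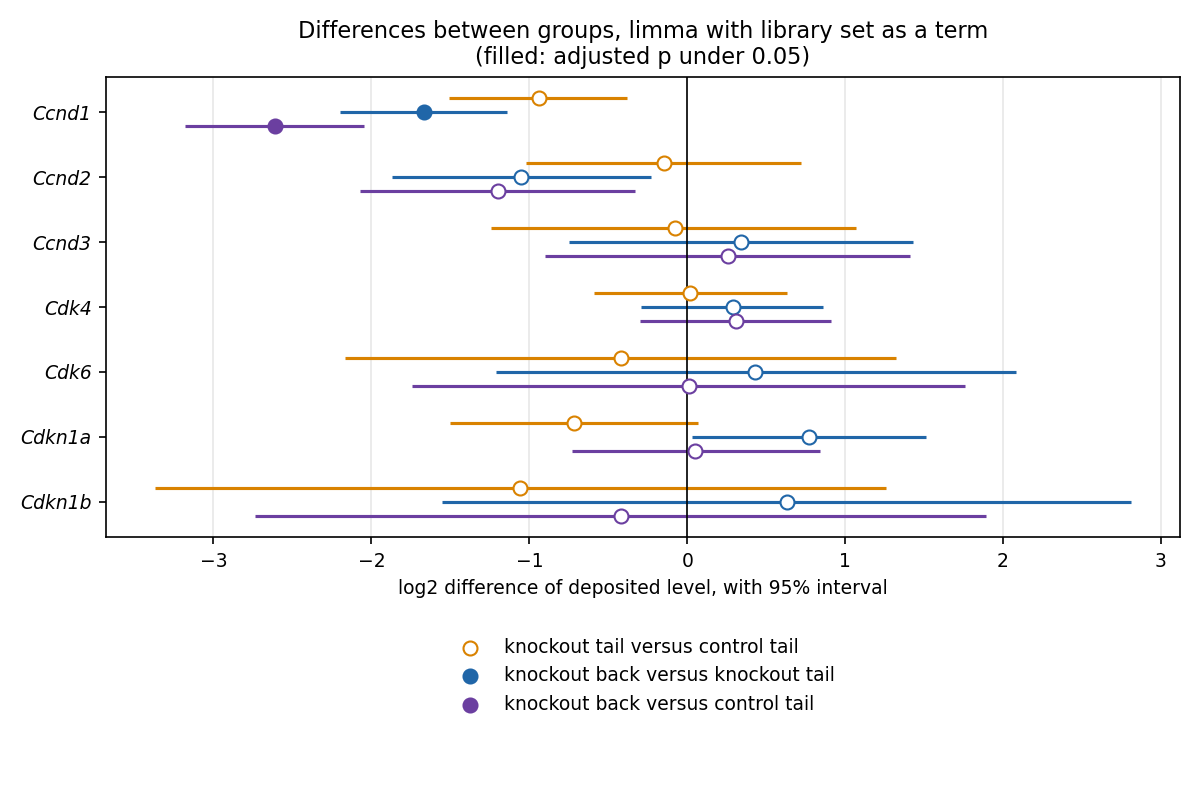
Log2 differences of deposited level (x axis) with 95% intervals for the 7 genes in the 3 comparisons, from limma with library set as a term. Filled points have an adjusted p under 0.05: Ccnd1 at -1.67 for back against knockout tail and at -2.61 for back against control tail.

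Compared per kb of exon, the 7 genes fell into 4 tiers across control tail, with no overlap between tiers when all exons give the length. With the longest transcript as the length, Ccnd3 (1892, 3024 and 5222) overlapped Ccnd1 (4212 to 5308). Cdkn1a was highest with a mean of 9955 ± 2277 normalised counts per kb (SD, n = 3). Ccnd2, Cdk4 and Ccnd1 followed at 4424 ± 614, 3928 ± 545 and 3913 ± 492, and their library ranges overlapped. Ccnd3 had 1486 ± 744. Cdkn1b and Cdk6 were lowest at 217 ± 95 and 208 ± 85, also overlapping. In rank, 361 of 15045 genes lay above Cdkn1a across control tail, 999 above Ccnd1 and 6960 above Cdk6.

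The order was otherwise in back. Cdkn1a (10104 ± 3418) and Cdk4 (5609 ± 1863) were highest, with ranges that overlapped. Ccnd3 (1936 ± 285) and Ccnd2 (1873 ± 1244) overlapped, and Ccnd1 had 782 ± 387. Ccnd1 libraries in back, 412 to 1184 per kb, overlapped those of Ccnd2, which reached down to 1033. In back 3644 genes lay above Ccnd1. In knockout tail the order was Cdkn1a (5746 ± 1441), Cdk4 (4414 ± 721), Ccnd2 (3500 ± 674), Ccnd1 (2691 ± 1280), Ccnd3 (1727 ± 1002), Cdk6 (125 ± 55) and Cdkn1b (114 ± 102), and each neighbouring pair overlapped except Ccnd3 and Cdk6. With the longest transcript the mean of Ccnd3 was above that of Ccnd1 in knockout tail (3927 against 3389) and above that of Ccnd2 in back (4403 against 2784), where the libraries still overlapped (3700 to 4977 against 1535 to 4907).

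Other genes of the pathway were read from 5 lists and set beside all genes. Over all 16299 genes, 929, 2974 and 4003 had an unadjusted limma p under 0.05 in the 3 comparisons, and the counts of each list stand beside these. Among 25 further regulators of the G1 cyclin and RB pathway (E2F and DP factors, pocket proteins, cyclin E, Cdk2 and the other inhibitors), 0 passed in any of the 3 comparisons by limma or limma-voom, while 0, 3 and 5 had an unadjusted p under 0.05. Limma-voom on the recovered counts called 0%, 1.24% and 2.63% of all genes. Their median difference was -0.10 in knockout tail against control tail, -0.20 in back against knockout tail and -0.28 in back against control tail, beside -0.07, -0.18 and -0.26 over all genes. Called genes made up 0.436% of all genes in back against knockout tail and 3.34% in back against control tail. The highest level of the list was that of Cdk2, the kinase partner of cyclin E, whose differences were 0.40, -0.29 and 0.12. Its exons share 34 bases with those of Pmel, one of the most abundant transcripts of these cells, on the other strand.

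Among 18 genes of cyclin, p21 and p27 turnover, such as the ubiquitin ligase parts Skp2, Fbxo4 and Ambra1, 0 passed in any comparison by limma or limma-voom (1, 6 and 4 at an unadjusted p under 0.05), with medians of -0.02, 0.03 and 0.02. Rbx1, a ring protein of cullin ligases and the highest of the list, differed by -0.10, 0.06 and -0.04. Of 22 p53 targets other than Cdkn1a, 0 passed in knockout tail against control tail or in back against knockout tail, with 0 and 6 at an unadjusted p under 0.05, and the medians were 0.09, 0.08 and 0.13. In the fit with group alone 2 passed in back against knockout tail, where that fit called 1.5% of all genes. Gtse1, a microtubule-associated protein that rises in dividing cells, fell by 1.99 in back against control tail (limma adjusted p = 0.0382), from 413, 693 and 631 normalised counts to 0, 0 and 156. The zeros are in the sparse libraries, the third knockout tail library had 1759, and limma-voom called 0 genes of this list. Perp, the highest of this list, differed by -0.44, 0.62 and 0.18, none of which passed.

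Genes driven by E2F and expressed in dividing cells had mostly negative differences in back, and 0 passed by limma or limma-voom in any comparison (1, 9 and 9 at an unadjusted p under 0.05). Of 25, 22 had a negative difference in back against knockout tail with a median of -1.46, and 23 did in back against control tail with a median of -1.12. Of all genes 36.7% and 33.9% had a positive difference in those comparisons. In knockout tail against control tail 12 were positive and 13 negative, with a median of -0.01. The second back library had 11 of the 25 at 0 counts and the first had 3, against 0 or 1 in the other 7. Over all genes, 6127 and 4628 of 16295 were at 0 in those 2 back libraries, against 854 to 1739 in the other 7. In the smaller set, which holds neither sparse library (1 library against 1), 15 were lower and 10 higher in back, with a median of -0.10 on the log2(normalised count + 1) scale, beside 0.00 over all genes. Pcna, the sliding clamp of DNA replication and the highest of the list, differed by -0.63 in back against knockout tail (adjusted p = 0.321).

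Of 20 transcription factors for which Ccnd1 is a textbook target, 0 passed in knockout tail against control tail and in back against knockout tail. At an unadjusted p under 0.05 there were 5 and 7, and limma-voom called 0 and 1. The fit with group alone called 1 in back against knockout tail, where it called 1.5% of all genes. In back against control tail 1 passed, 9 had an unadjusted p under 0.05, and limma-voom called 1. Ctnnb1, which encodes beta-catenin, rose there by 0.85 (limma adjusted p = 0.0438), from 31483, 23361 and 23851 to 49773, 44003 and 83897 normalised counts, while Ccnd1 fell. In the fit with group alone the adjusted p was 0.0553, and 14.62% of the Ctnnb1 exon bases lie opposite exons of Ulk4. Jun, an AP-1 subunit and the highest of the list, had 110929, 70371 and 409344 in back against 42247, 52716 and 77460 in knockout tail, a difference of 1.40 that did not pass (adjusted p = 0.0952).

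**Figure D4:**
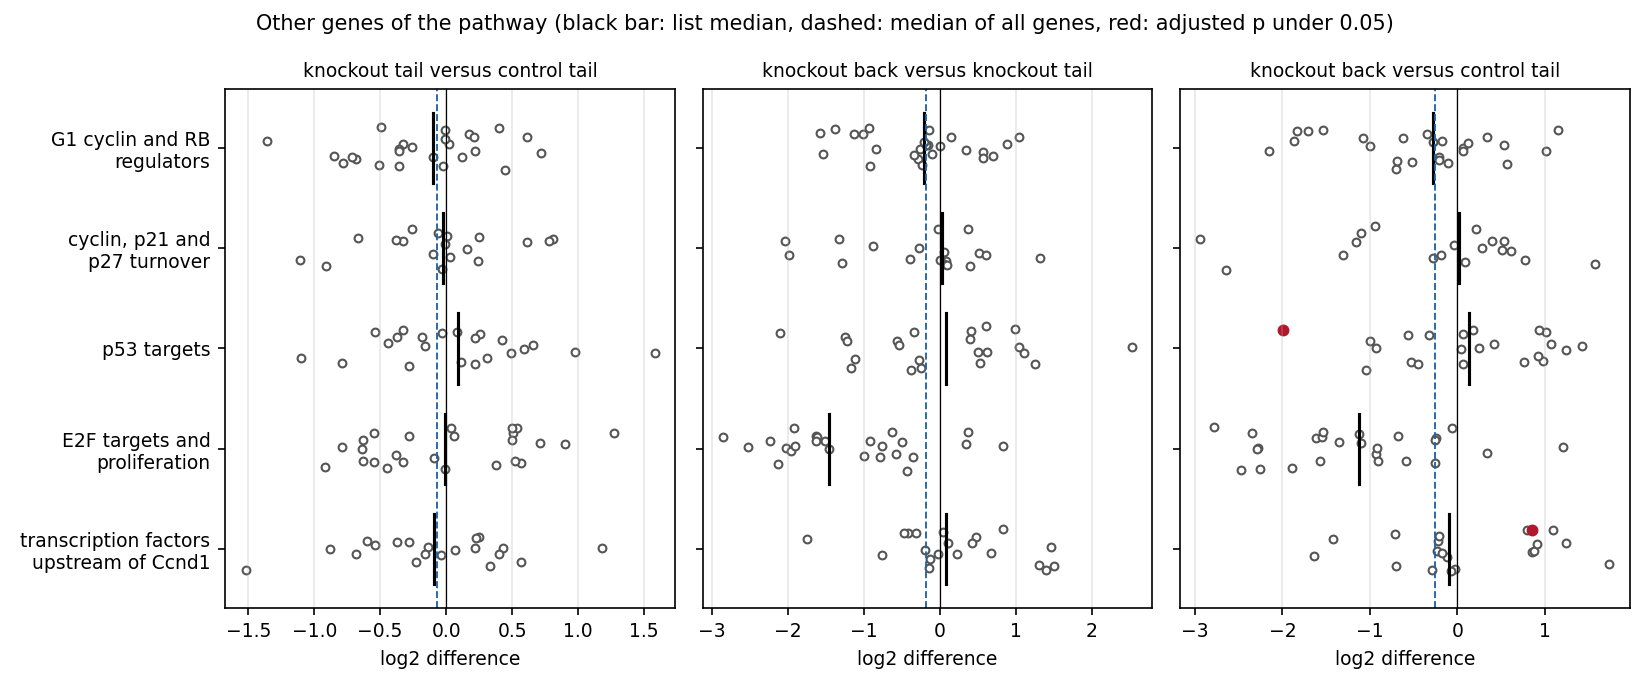
Log2 differences (x axis) of the genes of the 5 pathway lists in the 3 comparisons, 1 point per gene, with a black bar at the list median, a dashed line at the median of all genes, and red for adjusted p under 0.05. The E2F list has medians of -1.46 and -1.12 in the comparisons with back, and the red points are Gtse1 and Ctnnb1.

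The genes whose deposited levels ran most like those of each member over the 9 libraries were sought among the 8149 genes above the median level, by Pearson correlation and as a description only. All values share the same libraries and the removed shift. Ccnd1 was most like Cpne4 (r = 0.98), Sema3b (0.975) and Prl2c5 (0.971), and Ccnd2 like Asns (0.98), Nsrp1 (0.968) and Adipor1 (0.966). Ccnd3 had the weakest match of the 7, with Ubtd1 (0.907), Kat8 (0.847) and Atp6v0e (0.839). Cdk4 was most like Atg3 (0.975), Fkbp11 (0.971) and Cdc42ep5 (0.947), and Cdk6 like Gm7666 (0.96), Mrpl14 (0.938) and Ccdc32 (0.929). Cdkn1a was most like Gm29216 (0.94), Tmem254b (0.931) and BC028528 (0.912), and Cdkn1b like Rbmx (0.974), Vasp (0.951) and Rbm25 (0.949). No gene of the set was among the 3 closest of another.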

How the data were processed

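RNA was sequenced from 9 libraries of sorted melanocytes, 3 per group (SMART-Seq v4 kit, paired-end, per the labels' protocols). The deposited values are on a log2 scale, with DESeq2 and GRCm38 listed in the submitters' processing notes. Aligner, counter and strand setting were not given in the sources used here. Deposited values lie on a variance-stabilising curve with 0 counts at 7.98. In every gene the means of the 2 library sets were equal to within 7.14e-09, against up to 1.50 for the next best of 255 partitions. Undoing curve and shift gave whole counts, within a tolerance of 0.004, in 16295 genes. On simulated data 1000 of 1000 genes were recovered exactly.

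Differences were fitted with limma 3.58.1 (R 4.3.3, trend and robust moderation, group and library set as terms), tested on simulated data. The set term replaces the group-only fit of an earlier analysis, because the removed shift had made no allowance for group. Shares were tested by exact permutation (scipy 1.17.1). Exon lengths and coordinates, counted from 1, are from GENCODE vM21. Named genes are the 7 members, list genes past the threshold (up to 5 per list), the highest gene of each list and the 3 closest genes of each member. Members, lists and alternatives were chosen with earlier results of these data known. No filter or pseudocount was used in the fit. Intervals for counting error are not given.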

Additional observations from a re-analysis of the deposited data

How the results depend on the processing

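The number of genes called moved most. One alternative, called the unshifted fit, changes 3 choices together: it leaves the shift in, drops the set term and uses log2(normalised count + pseudocount). For knockout tail against control tail (10 genes) it was 0 with group alone, without the mean-variance trend, with limma-voom with or without the set term, without the sparse libraries and without the smaller set (814, 860, 955, 701, 1924 and 982 at an unadjusted p under 0.05), 130 with array weights, and 4 in the unshifted fit at a pseudocount of 1 or 8. For back against knockout tail (71) it was 244 with group alone, 6 with array weights, 139 in the unshifted fit (pseudocount 1), 202 and 168 with limma-voom with and without the set term, 1 without the sparse libraries and 1637 without the smaller set. For back against control tail (545) it was 163 with group alone, 37 with array weights, 338 and 268 in the unshifted fit (pseudocounts 1 and 8), 317 with limma-voom and group alone, 8 without the sparse libraries and 2371 without the smaller set. Leaving out 1 library gave 0 to 8, 2 to 1642 and 26 to 2385.

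Ccnd1 in back against knockout tail missed the threshold with array weights (-1.60), the unshifted fit (-1.81 at either pseudocount), limma-voom with group alone (-1.70) and without the sparse libraries (-1.73), and ranged from -1.89 to -1.47 over single leave-outs. Against control tail it missed only without the sparse libraries (-2.69). In knockout tail against control tail it passed only with array weights (-0.95). Cdkn1a in back against knockout tail passed at 1.24 without the smaller set and reversed to -0.17 without the sparse libraries.

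Signs of uncalled differences also turned. In knockout tail against control tail these were Cdk4 with group alone (-0.01), and Ccnd3 in the unshifted fit (0.13 at both pseudocounts) and limma-voom with group alone (0.06). Without the sparse libraries, Ccnd3 and Cdk6 turned in back against knockout tail (-0.43 and -0.29), and Ccnd3, Cdk6 and Cdkn1a in back against control tail (-0.70, -0.90 and -1.12). In that comparison Cdk6 also turned with array weights (-0.44), quantile normalisation (-0.08), the unshifted fit (-0.29 at both) and limma-voom with and without the set term (-0.08 and -0.40), and Cdkn1a with array weights (-0.10), quantile normalisation (-0.03), the unshifted fit (-0.02 at both) and limma-voom with group alone (-0.03). Single leave-outs in knockout tail against control tail gave -0.28 to 0.12 for Ccnd2, -0.42 to 0.51 for Ccnd3, -0.11 to 0.11 for Cdk4 and -0.68 to 0.07 for Cdk6. In back against knockout tail they gave -0.14 to 0.72 for Ccnd3, -0.43 to 1.09 for Cdk6, 0.50 to 1.24 for Cdkn1a and -0.40 to 1.60 for Cdkn1b. In back against control tail they gave -1.77 to -0.82 for Ccnd2, -0.09 to 0.62 for Ccnd3, -1.07 to 0.83 for Cdk6, -0.20 to 0.29 for Cdkn1a and -1.72 to 0.78 for Cdkn1b. The causes were not tested.

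The labels do not say that a shared number marks a shared source. Deviations of same-numbered libraries had correlations across genes from -0.17 to 0.08 in 8 of 9 pairs, so the numbers were not taken to pair the libraries. The ninth, library 3 of knockout tail with library 3 of back, had -0.70. The removed shift bears on that value, so it does not test pairing, and both belong to the smaller set. With the replicate number as a block and no set term, 0, 21 and 42 genes were called in the 3 comparisons, Ccnd1 in back against knockout tail was -1.67 (limma adjusted p = 0.0725), and Cdk4 in knockout tail against control tail was -0.01.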
